A study of Mus musculus with 6 samples.

Results

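The 47 genes described here encode cell adhesion and synapse-organizing proteins of neurons, taken as a named list in 13 families, out of 21887 protein-coding genes on the assembled mouse chromosomes. All 47 names matched a gene in the RefSeq table of GRCm38.p6, the assembly whose coordinates mm10 uses. A peak belonged to a gene if it lay inside the gene's span, or within 50 kb of it where that gene was the nearest protein-coding gene. By this rule 634 peaks from 6 lists, merged into 397 regions out of 39374, were assigned to these genes.

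The peaks come from CUT&RUN, in which an antibody against estrogen receptor alpha (ERα, encoded by Esr1) directs a nuclease to the chromatin it binds in isolated nuclei, and the released fragments are sequenced. The estradiol group (3 libraries) came from adult C57/BL6 male mice given 5 µg estradiol benzoate under the skin, and the vehicle group (3 libraries) from males given corn oil. All the males had been gonadectomized at 10 to 12 weeks of age, 3 weeks before the injection, and limbic brain nuclei were prepared 4 hours after it. The strain and treatment tags are missing from the labels of replicate 3 of each group, whose group was read from the title and whose strain from the protocol.

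The tissue held many cell types, so fewer ERα-expressing nuclei and less binding per nucleus cannot be told apart. Peak lists do not measure expression, and the labelled tissue was therefore not checked against marker genes. Whether each library had its own animals is not stated in the labels, and p-values here therefore describe library-to-library spread, possibly technical. Lists held 11082, 14123 and 17558 peaks in estradiol replicates 1, 2 and 3, against 5421, 13717 and 20541 in vehicle replicates 1, 2 and 3. Vehicle replicate 1 was thus the shortest list. Replicate 3 of each group has its own style of peak name and shorter labels, and was treated as a separate batch.

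Synaptic adhesion molecules span the cleft between neurons and also attach axons to glia. Presynaptic neurexins and receptor phosphatases of the LAR type bind postsynaptic partners such as neuroligins, LRRTM, SLITRK and IL1RAPL proteins, and teneurins bind latrophilins. ERα is a ligand-activated transcription factor that binds the estrogen response element, a palindrome of GGTCA and its reverse complement, or reaches DNA through other factors. Many adhesion genes are among the longest in the genome, which bears on any count of peaks. The median span was 332 kb for the 47 genes and 17.2 kb for all protein-coding genes, and 11 of the 47 (23.4%) were longer than 1 Mb, out of 59 such genes in all.

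The adhesion genes had peaks in the estradiol lists more often than genes in general, and about as often as other genes of their length. A peak in all 3 estradiol libraries was found for 27 of 47 genes (57.4%, exact 95% binomial interval 42.2 to 71.7, for counting error only), against 25.6% of all protein-coding genes. Other genes of like span (the shorter span at least 0.8 of the longer) had one in 51.3% of cases on average. That difference of 6.15 percentage points turned to -4.24 without estradiol replicate 1. It was 1.17 with only peaks inside the span counted (21 of 47 genes). With every list shortened to its 5421 strongest peaks, the length of the shortest, the count was 12 of 47 and the difference from genes of like span 8.16 percentage points. A peak in all 3 vehicle libraries was found for 14 of 47 (29.8%), against 31.6% of genes of like span and 16.8% of all genes. The vehicle count was 27 without vehicle replicate 1, 16 without vehicle replicate 2 and 14 without vehicle replicate 3, the rule being easier to meet in each case. The share of all genes under that rule is not given.

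At least 1 peak in any library was found for 42 of 47 genes, against 85.3% of genes of like span and 60.9% of all genes. At least 1 estradiol library had a peak at 41 of them, and at least 1 vehicle library at 39, against 52.8% and 54.8% of all genes. A peak was found at 29, 33 and 35 of the 47 genes in estradiol replicates 1, 2 and 3, against 16, 28 and 38 in vehicle replicates 1, 2 and 3. As shares these were 61.7, 70.2 and 74.5% in estradiol libraries, where genes of like span had 58.3, 67.7 and 72.9%, and 34.0, 59.6 and 80.9% in vehicle libraries, where genes of like span had 39.0, 62.1 and 75.5%. The 2 groups overlapped, with the highest and the lowest count both in the vehicle group. The means were 32.3 ± 3.06 in estradiol and 27.3 ± 11.02 in vehicle libraries (SD, n = 3 each), a difference of 5 genes (two-sided exact permutation p = 0.6, the smallest possible being 0.1). Within replicates 1 and 2 the difference was 9 genes, within replicate 3 it was -3, and without vehicle replicate 1 it was -0.667. As a share of the library, peaks at adhesion genes made up 0.641, 0.793 and 0.957% of the estradiol lists and 0.387, 0.6999 and 0.808% of the vehicle lists. The means were 0.797 ± 0.158% and 0.632 ± 0.218% (SD, n = 3 each), a difference of 0.165 percentage points (two-sided exact permutation p = 0.5). Replicate 3 alone gave 0.149, and replicates 1 and 2 gave 0.173. The number of peaks at these genes was 71, 112 and 168 in estradiol libraries and 21, 96 and 166 in vehicle libraries (117 ± 48.7 and 94.3 ± 72.5, SD, n = 3 each, two-sided exact permutation p = 0.7). Its difference of 22.7 peaks was -14 without vehicle replicate 1 and -2.83 without estradiol replicate 3. None of these differences passed the test, and each was smaller than the SD of the vehicle libraries.

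**Figure D1:**
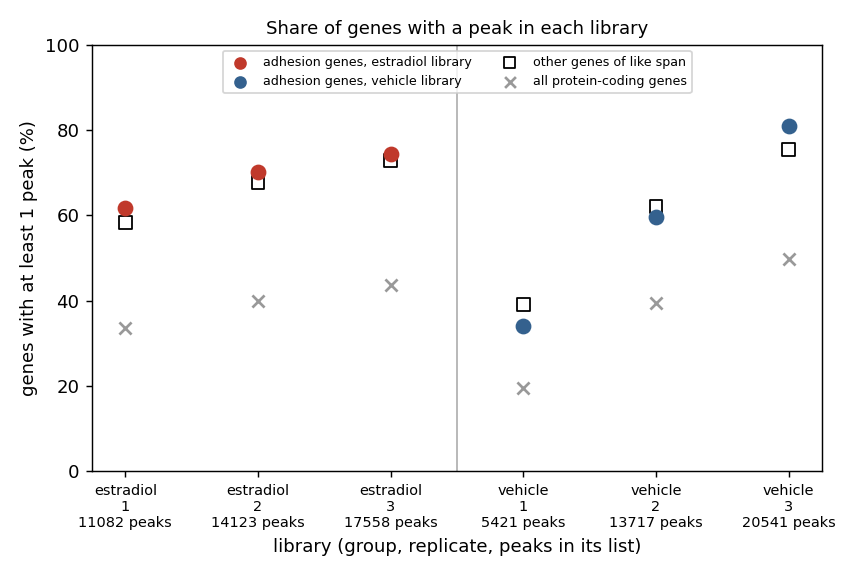
Share of genes with at least 1 assigned peak (y axis, %) in each library (x axis, with the number of peaks in its list). Filled circles are the 47 adhesion genes, open squares the mean of other genes of like span, and crosses all protein-coding genes. The circles run with the squares in every library, from 34.0% in vehicle replicate 1 to 80.9% in vehicle replicate 3.

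By presence in the lists the genes fell into a few classes. Peaks in all 6 libraries were found for 13 of 47 genes, against 14.3% of all genes and 28.5% of genes of like span: Nrxn3, Nlgn3, Lsamp, Opcml, Negr1, Cadm1, Cadm2, Slitrk5, Tenm2, Adgrl1, Ptprs, Dscam and Kirrel3. A further 13 genes had peaks in 3 estradiol and 2 vehicle libraries, namely Nrxn2, Nlgn1, Cntn1, Cntn5, Cntnap1, Cntnap2, Cntnap4, Lrrtm4, Ntm, Slitrk3, Tenm4, Ptprd and Dscaml1. In each of these except Lrrtm4, the vehicle library without a peak was replicate 1, the shortest list. Slitrk1 alone had peaks in 3 estradiol and 0 vehicle libraries, a pattern held by 0.334% of all genes, and no adhesion gene had peaks in 3 vehicle and 0 estradiol libraries (0.142% of all genes). It follows that Slitrk1 had more peaks in every estradiol library than in any vehicle library. It was the 1 such adhesion gene (0.576% of all genes), and for 0 genes was the reverse seen (0.192% of all genes). No peak in any library was assigned to 5 genes (39.1% of all genes and 14.7% of genes of like span): Nlgn2, Lrrtm2, Cadm4, Slitrk4 and Adgrl2. The remaining 15 genes had peaks in 1 to 5 libraries.

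**Figure D2:**
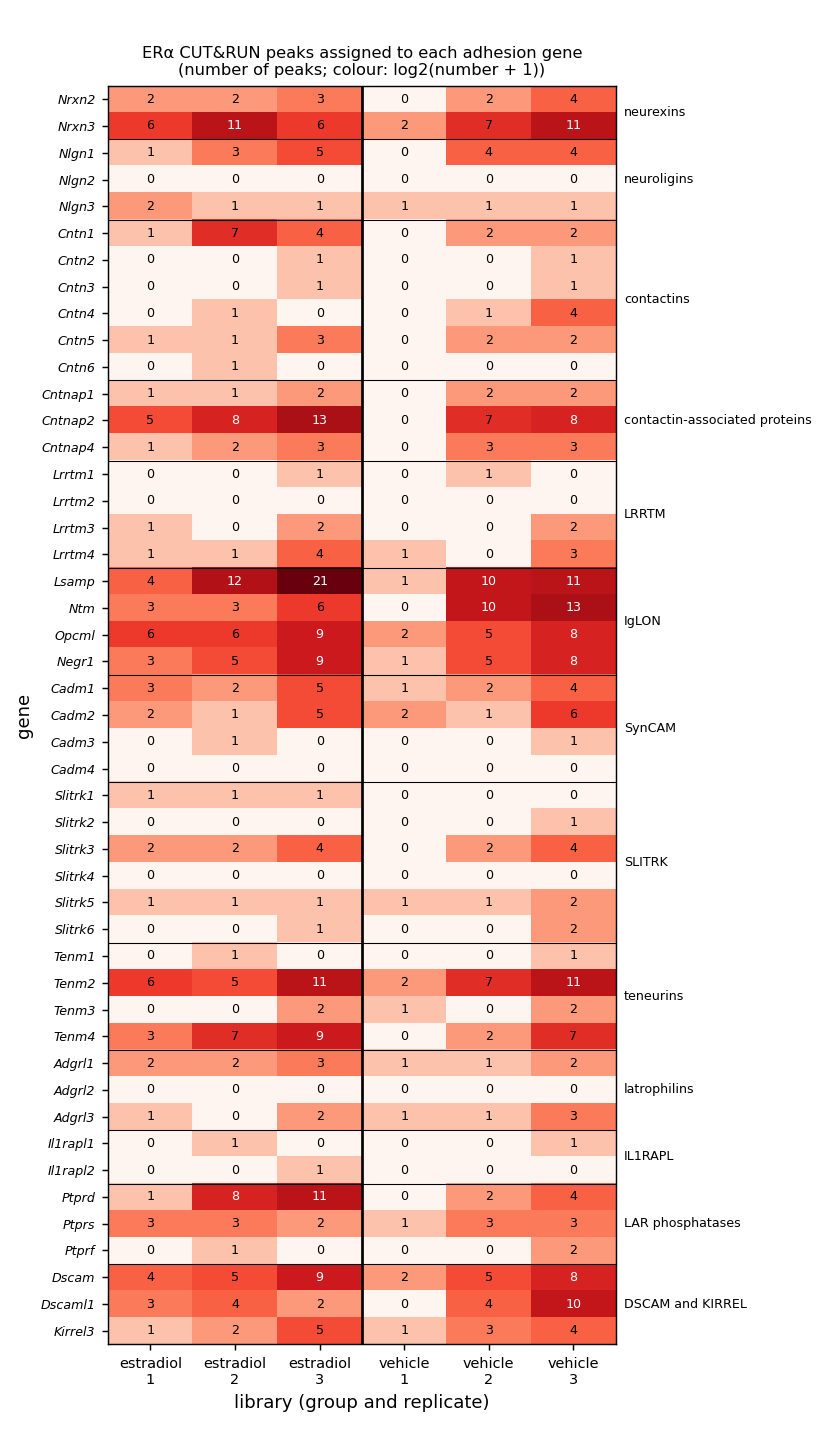
Number of peaks assigned to each of the 47 genes (rows, grouped by family) in each library (columns, estradiol left of vehicle). Numbers are peaks and the colour is log2(number + 1). Lsamp has the most, with up to 21 in estradiol replicate 3, and vehicle replicate 1 is the palest column for most genes.

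The neurexins are presynaptic receptors that organize release sites. Nrxn3 (chromosome 12, 88722701 to 90334935) had 6, 11 and 6 peaks in the estradiol libraries and 2, 7 and 11 in the vehicle libraries. Nrxn2 (chromosome 19, 6418756 to 6533217) had 2, 2 and 3 against 0, 2 and 4. For both genes the groups overlapped, and both held more peaks over the 6 libraries than most genes of like span (86.7% of 15 genes for Nrxn3 and 90.8% of 1150 for Nrxn2). The region of Nrxn3 with peaks in all 6 libraries lay inside the gene at 90211557 to 90211700, 399 kb downstream of the nearest listed start site. It held 10, 6 and 14 fragments at the summit in the estradiol libraries and 5, 8 and 10 in the vehicle libraries. Summit fragments were estimated from the deposited fold and p-value; the smallest called summit held 4 in each library and the median 6.

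The LAR-type phosphatases are the other main class of presynaptic organizers. Ptprs (chromosome 17, 56412426 to 56476561) had 3, 3 and 2 peaks in the estradiol libraries and 1, 3 and 3 in the vehicle libraries, more in total than 97.05% of 1693 genes of like span. Its strongest region covered a listed start site and is shown by sequence below. A second listed start, inside the gene, had a region (56462204 to 56462504) with 11, 10 and 6 fragments in the estradiol libraries and 9 in vehicle replicate 3, and no peak in the other 2 vehicle libraries. Ptprd (chromosome 4, 75941237 to 78211742), the longest of the 47 genes, had 1, 8 and 11 peaks in the estradiol libraries and 0, 2 and 4 in the vehicle libraries. These ranges overlap, since estradiol replicate 1 held a single peak. Ptprd had 3 regions with peaks in 2 estradiol and 0 vehicle libraries, the strongest at 76672748 to 76672907 with 6 and 12 fragments in estradiol replicates 2 and 3. Ptprf had 3 peaks in all, 1 in estradiol replicate 2 and 2 in vehicle replicate 3.

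The postsynaptic partners of these proteins varied from gene to gene. Among neuroligins, Nlgn1 had 1, 3 and 5 peaks in the estradiol libraries against 0, 4 and 4 in the vehicle libraries. Its most shared region, at 26153922 to 26154065 on chromosome 3, lay over a listed start site inside the gene and held 4 and 6 fragments in estradiol replicates 2 and 3 against 5 and 7 in vehicle replicates 2 and 3. Nlgn3, on the X chromosome, had 2, 1 and 1 peaks against 1, 1 and 1. Its region of all 6 libraries lay 11.1 kb beyond the gene (101332488 to 101332776), with 9, 12 and 12 fragments in the estradiol libraries and 9, 13 and 20 in the vehicle libraries.

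Nlgn2, which encodes the neuroligin of inhibitory synapses, shows a limit of the assignment. A region 502 bp beyond the gene, at 69838286 to 69838564 on chromosome 11, had 21, 24 and 31 fragments in the estradiol libraries and 9, 25 and 44 in the vehicle libraries. That region overlaps the neighbouring gene Tmem256 and was assigned to it, so Nlgn2 counts as a gene without a peak. Of the other genes without one, Cadm4 had a region 2.44 kb away inside its neighbour Zfp428, and the nearest regions to Lrrtm2, Adgrl2 and Slitrk4 lay 84.9, 173 and 356 kb away.

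The LRRTM genes, whose products bind neurexins, had 0 to 4 peaks in any library, and Lrrtm2 had none. Lrrtm1 had 2 in all, 1 in estradiol replicate 3 and 1 in vehicle replicate 2, and each lay inside another gene as well. The highest peak of the family lay inside Lrrtm3 and another gene that overlaps it (chromosome 10, 64084521 to 64084607), with 5 fragments in estradiol replicate 1 and 12 in vehicle replicate 3. The other Lrrtm3 peaks also lay inside another gene. A region over the listed promoter of Lrrtm3 had peaks in 2 estradiol and 1 vehicle libraries. It lay before the start site, outside the gene's span, and was not assigned to Lrrtm3. The most shared region lay at a listed start of Lrrtm4 (chromosome 6, 80018870 to 80018967), with 8 and 6 fragments in estradiol replicates 1 and 2 and 4 and 4 in vehicle replicates 1 and 3. The IL1RAPL genes, long genes on the X chromosome whose products bind LAR-type phosphatases, had 3 peaks in all. Those were 2 in the estradiol libraries and 1 in the vehicle libraries, each with 5 fragments.

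The SLITRK genes are short, and their peaks were uneven. Slitrk3 (chromosome 3, 73047066 to 73057953) had 2, 2 and 4 peaks in the estradiol libraries and 0, 2 and 4 in the vehicle libraries, more in total than 98.8% of 2276 genes of like span. Of its 14 peaks, 5 lay inside the gene, and by peaks inside per Mb of span it lay above 88.4% of those genes. Its most shared region (73066194 to 73066339, 3 estradiol and 2 vehicle libraries) lay 8.24 kb outside, within 1 kb of a listed start of another gene. Its highest region, at 73057754 to 73057809, held 10 and 16 fragments in estradiol replicates 1 and 3 and 22 in vehicle replicate 3. Slitrk5 had 1, 1 and 1 peaks against 1, 1 and 2, with a region of all 6 libraries 183 bp outside the gene. Slitrk2, Slitrk4 and Slitrk6 had 4 peaks in total. Slitrk1 had 1 peak in each estradiol library and none in the vehicle libraries, but not at a single place. Estradiol replicates 2 and 3 had theirs at the start of the gene (chromosome 14, 108914199 to 108914242, 6 fragments each), and estradiol replicate 1 had its peak 21.8 kb away with 4 fragments.

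Teneurins and their latrophilin receptors differed within each family. Tenm2 had 6, 5 and 11 peaks in the estradiol libraries and 2, 7 and 11 in the vehicle libraries, and Tenm4 had 3, 7 and 9 against 0, 2 and 7. Tenm3, of much the same length as Tenm2, had 0, 0 and 2 against 1, 0 and 2, and Tenm1 had 0, 1 and 0 against 0, 0 and 1. Tenm2 thus lay above 94.9% of 39 genes of like span, whereas 94.7% of 38 such genes lay above Tenm3. The highest peak of the family lay inside Tenm2 at 36677695 to 36677895 on chromosome 11, with 6 and 11 fragments in estradiol replicates 1 and 3 and 10 and 16 in vehicle replicates 2 and 3. Another 4 regions lay close by, between 36677500 and 36678430, and all their peaks were from estradiol libraries (2 of the regions had peaks in 2 such libraries and 2 in replicate 3 alone). Gaps in this stretch were under 500 bp, so merging across 500 bp would join these 4 with the region that held vehicle peaks. Adgrl1 had 2, 2 and 3 peaks against 1, 1 and 2, and Adgrl3 had 1, 0 and 2 against 1, 1 and 3. Adgrl2 had none, although 90.4% of 699 genes of like span had at least 1.

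The IgLON genes, which encode lipid-anchored adhesion proteins of neurons, had the most peaks of the 13 families. Together they held 16, 26 and 45 in the estradiol libraries and 4, 30 and 40 in the vehicle libraries. Lsamp (chromosome 16, 39984254 to 42181679) had 4, 12 and 21 against 1, 10 and 11, Negr1 (chromosome 3, 156561790 to 157316464) 3, 5 and 9 against 1, 5 and 8, and Opcml (chromosome 9, 27790716 to 28925410) 6, 6 and 9 against 2, 5 and 8. In all 3 the groups overlapped. Ntm, the neighbour of Opcml on chromosome 9, had 3, 3 and 6 in the estradiol libraries and 0, 10 and 13 in the vehicle libraries, so in replicates 2 and 3 the vehicle library held more. The highest single IgLON peak lay in Lsamp at 40968143 to 40968332, with 5 and 15 fragments in estradiol replicates 2 and 3 and 5 and 21 in vehicle replicates 2 and 3. All 4 genes lay above most genes of like span: Lsamp above all 4 such genes, Opcml above 97.8% of 46, Ntm above 92.1% of 63 and Negr1 above 91.1% of 79.

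Contactins, which are also lipid-anchored, mostly had few peaks for their length. Cntn1, a contactin of the paranodal junction, had 1, 7 and 4 peaks against 0, 2 and 2. Of the other 5, Cntn5 had 1, 1 and 3 against 0, 2 and 2, and the rest had at most 1 peak in any estradiol library. Cntn4, longer than 1 Mb, had 1 peak in the estradiol libraries and 5 in the vehicle libraries, and 92.1% of 63 genes of like span had more than its 6. The highest contactin peak was in Cntn4 (106335182 to 106335240 on chromosome 6), with 9 fragments in vehicle replicate 3 and no peak elsewhere. Cntn2 and Cntn3 had 2 peaks each in all, and Cntn6 had 1. Among their membrane-spanning partners, Cntnap2, known for clustering potassium channels along axons, had 5, 8 and 13 against 0, 7 and 8, Cntnap4 had 1, 2 and 3 against 0, 3 and 3, and Cntnap1 had 1, 1 and 2 against 0, 2 and 2.

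The SynCAM genes Cadm1 and Cadm2 each had a region of all 6 libraries at an end of the gene, while Cadm3 had 2 peaks in all and Cadm4 none. Cadm1 had 3, 2 and 5 peaks in the estradiol libraries against 1, 2 and 4, and Cadm2 had 2, 1 and 5 against 2, 1 and 6. A Cadm1 region inside the gene at 47569738 to 47569931 on chromosome 9 had 11 and 14 fragments in estradiol replicates 2 and 3 and no vehicle peak. Dscam, which encodes a homophilic adhesion protein, had 4, 5 and 9 peaks against 2, 5 and 8. The highest peak of its family lay in it at 96969795 to 96969930 on chromosome 16, with −log10 q of 2.94, 4.59 and 8.44 in the estradiol libraries and 8.26 in vehicle replicate 3 alone among vehicle libraries. Its relative Dscaml1 had 3, 4 and 2 against 0, 4 and 10, and Kirrel3 had 1, 2 and 5 against 1, 3 and 4.

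**Figure D3:**
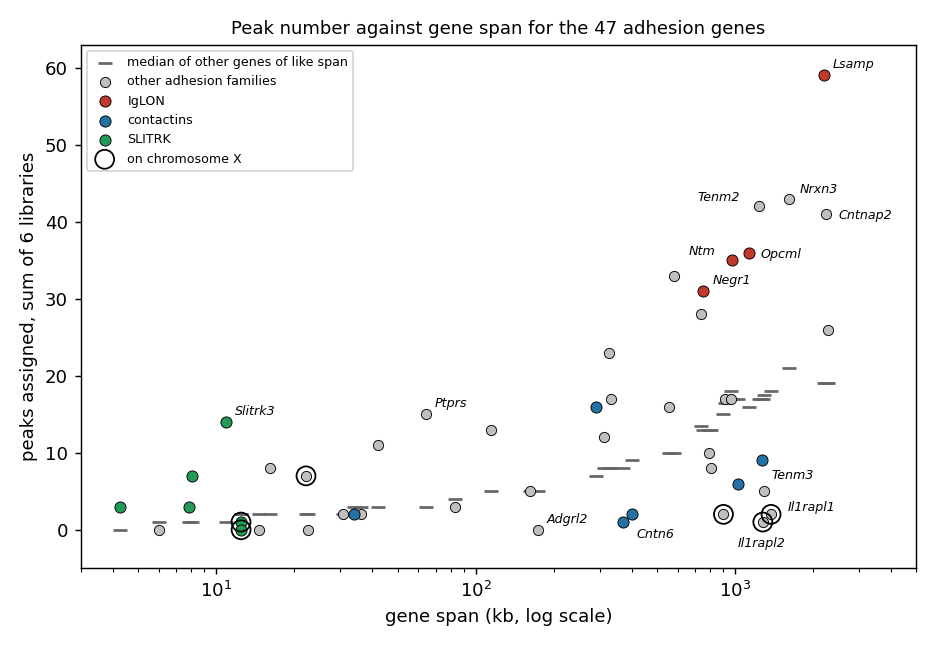
Peaks assigned to each gene, summed over 6 libraries (y axis), against gene span (x axis, kb, log scale). Each circle is 1 of the 47 genes, coloured for 3 families and ringed where the gene is on the X chromosome; dashes are the median of other genes of like span. The IgLON genes lie above their dashes, at 31 to 59 peaks, and the long X-linked genes lie near 0.

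Across the 47 genes, 25 had more peaks over the 6 libraries than the median of their like-span genes, 20 had fewer and 2 had the same. More peaks than 90% of like-span genes were found for 11 genes, and over 90% of like-span genes exceeded 7 others. No share of all genes passing these cuts is given, so the counts have no baseline. Among those 7, Tenm1, Il1rapl1 and Il1rapl2 are X-linked, with 67, 30 and 38 autosomal genes of like span and 1 X-linked gene each. The number of peaks went up with span (Spearman's rho 0.540 over 47 genes, against 0.433 over all genes), where genes share the same libraries. For 3 of the genes (Lsamp, Cntnap2 and Ptprd) as few as 4 other genes had a like span.

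Of the 6 genes on the X chromosome, which males carry in a single copy, the short Nlgn3 had 7 peaks over the 6 libraries, more than 83.3% of genes of like span. Those 7 peaks all lay outside its span. Slitrk2 had 1 and Slitrk4 none, and the long genes Tenm1, Il1rapl1 and Il1rapl2 had 2, 2 and 1. The median of 2 for these long genes equals the median of the 21 other X-linked genes over 300 kb. For autosomal genes over 300 kb the median was 17 for 23 adhesion genes and 10 for 510 other genes.

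A list of 41 related adhesion genes, such as Flrt2, Lrfn5 and Cdh2, was also counted. Their median span was 93.2 kb. A peak in all 3 estradiol libraries was found for 16 of them (39.0%), against 39.3% of other genes of like span and 25.6% of all genes. All 3 vehicle libraries had one at 9 of them (22.0%), against 24.8% of genes of like span and 16.8% of all genes. No library had one at 8 (19.5%), against 21.7% and 39.1%.

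Estradiol-only regions, with peaks in all 3 estradiol and 0 vehicle libraries, made up about the same share of the regions at adhesion genes as of all regions. There were 3 among 397 (0.756%), against 0.737% of all regions, and 0 vehicle-only regions, against 0.112%. The 3 genes concerned were Negr1, Lsamp and Cntnap2, or 6.38% of the 47 genes, against 6.50% of genes of like span and 0.982% of all protein-coding genes. A vehicle-only region was found at 0 of the 47, against 0.310% of genes of like span and 0.192% of all genes. The Negr1 region (chromosome 3, 156908065 to 156908257), 346 kb inside the gene, had −log10 q of 7.64, 5.57 and 24.5 and summit fragments of 9, 7 and 23 in estradiol replicates 1, 2 and 3. It was by far the highest in replicate 3, and the nearest vehicle peak lay 20.2 kb away. The Lsamp region (chromosome 16, 40122814 to 40122948), 139 kb inside the gene, rested on 4, 7 and 10 fragments, with −log10 q values of 2.25, 7.46 and 9.97. In estradiol replicate 1 it stood just above the threshold of 2 and at the smallest summit called. The Cntnap2 region (chromosome 6, 46745600 to 46745697) rested on 5 fragments in each library, with −log10 q values of 4.02, 4.16 and 3.07. With 3 libraries a group, the smallest exact p for any 1 region is 0.1.

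These 3 regions depend on the settings. None met the rule when each library's peaks had to cover 50% of the region, or when lists were shortened to the 5421 strongest peaks. Estradiol replicates 1, 2 and 3 covered 61.1, 43.5 and 100% of the Negr1 region, with summits within 43 bp. They covered 28.1, 83.0 and 57.0% of the Lsamp region, with summits within 54 bp. For the Cntnap2 region the cover was 35.7, 94.9 and 34.7%, with summits within 46 bp. When 2 of 3 libraries sufficed there were 21 estradiol-only regions (5.29%, against 3.71% of all regions) and 7 vehicle-only regions (1.76%, against 2.60%). After the Negr1 region, the highest peak among the 21 was in Cntnap2 at 47285352 to 47285576, with 19 and 14 fragments in estradiol replicates 2 and 3. Without vehicle replicate 1 there were 6 vehicle-only regions, against 0 without vehicle replicate 2 and 1 without vehicle replicate 3. The rule was easier to meet in each case, and no share of all regions is given for it.

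**Figure D4:**
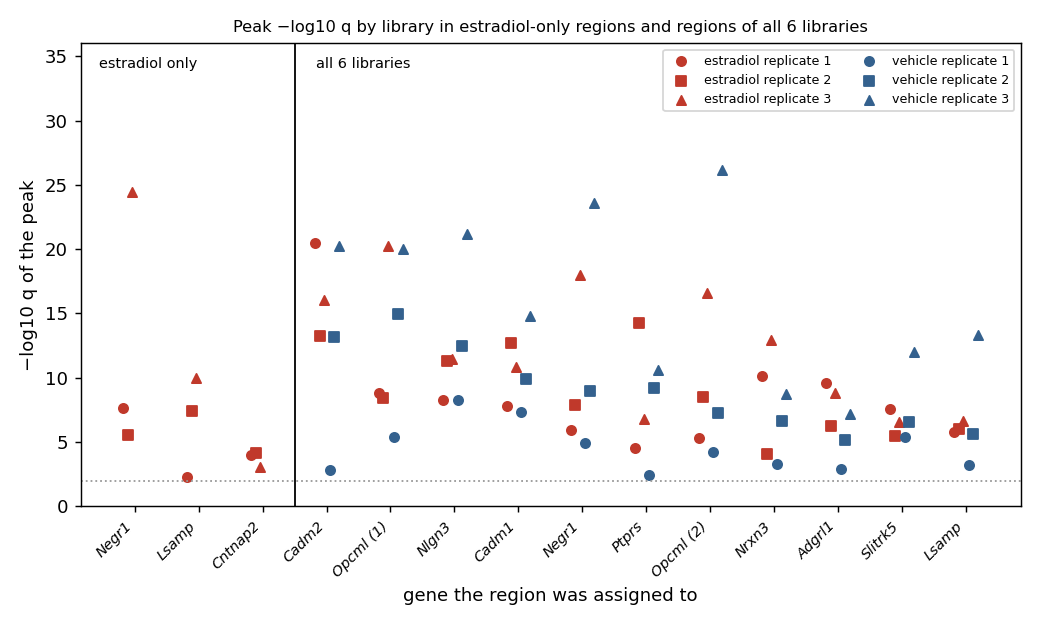
−log10 q of the peak (y axis) by library for the 3 estradiol-only regions (left) and the 11 regions of all 6 libraries (right), named by gene; Opcml has 2. Red is estradiol, blue is vehicle, the marker is the replicate number, and the dotted line is the threshold of 2. Estradiol and vehicle points are mixed in the regions of all 6 libraries, and vehicle replicate 1 is the lowest point in each except Nlgn3.

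Regions found in all 6 libraries numbered 11 of 397 (2.77%), against 7.27% of all regions. The highest median was in Cadm2 (chromosome 16, 67620887 to 67621039), with −log10 q of 20.5, 13.2 and 16.0 in the estradiol libraries and 2.82, 13.2 and 20.2 in the vehicle libraries. Inside Opcml there were 2, at 28595181 to 28595389 (8.86, 8.43 and 20.2 against 5.39, 15.0 and 20.0) and at 28887799 to 28888057 (5.34, 8.54 and 16.6 against 4.25, 7.25 and 26.1). They lay 804 and 1097 kb after the listed start of Opcml. A Negr1 region 698 bp outside the gene (156560775 to 156561092) had 5.98, 7.92 and 18.0 against 4.97, 8.99 and 23.6. The Cadm1 region (47530141 to 47530356 on chromosome 9), at an end of the gene, had 7.80, 12.7 and 10.8 against 7.36, 9.90 and 14.8, and the Adgrl1 region (83899487 to 83899931 on chromosome 8) had 9.62, 6.23 and 8.81 against 2.92, 5.13 and 7.17. At the start of Ptprs (56476442 to 56476585) the values were 4.51, 14.2 and 6.77 against 2.47, 9.21 and 10.6, and at that of Lsamp (39984245 to 39984391) 5.80, 5.999 and 6.68 against 3.22, 5.63 and 13.3. The Slitrk5 region had 7.55, 5.48 and 6.56 against 5.39, 6.56 and 12.0. In each of these regions the groups overlapped.

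Position differed with the number of libraries. Of the 397 regions, 354 (89.2%) lay inside the span of the gene, and 6 of those lay inside another gene as well. Within 1 kb of a listed start site of any gene lay 15 of 281 regions of 1 library (5.34%, against 12.7% of all such regions), 12 of 105 regions of 2 to 5 libraries (11.4%, against 32.2%), and 6 of 11 regions of all 6 libraries (54.5%, against 69.2%). None of the 3 estradiol-only regions lay there, against 11.4% of all estradiol-only regions. Regions of 1 library made up 70.8% of those at adhesion genes and 58.9% of all regions.

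**Figure D5:**
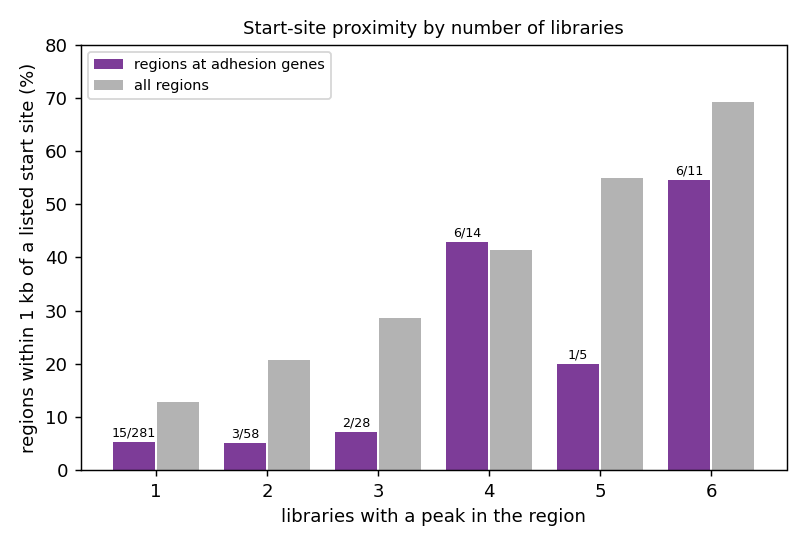
Share of regions within 1 kb of a listed start site (y axis, %) by the number of libraries with a peak in the region (x axis). Purple bars are regions at the 47 genes, with counts above them, and grey bars all regions. Both are highest at 6 libraries, with 54.5% and 69.2%.

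Promoters are where the deposited peaks and available sequence meet. RefSeq promoters of GRCm38.p6, 300 bp from 250 before to 50 after a start site, were listed for 37 of the 47 genes (53 promoters). A peak of any library overlapped 17 of them (32.1%, against 24.5% of all listed promoters), and a region of all 6 libraries overlapped 4 (7.55%, against 7.21%), those of Cadm2, Lsamp, Ptprs and Adgrl1. The sequences of the first 3 are shown because every library had a peak there, that of the inner start of Cntnap2 because 2 estradiol and 2 vehicle libraries did, and that of Slitrk1 because 2 estradiol and 0 vehicle libraries did. Capitals mark bases inside a peak of every library that had a peak there. The promoters are at chr16:67620859-67621158 (Cadm2, minus strand), chr16:39984114-39984413 (Lsamp, plus), chr17:56476431-56476730 (Ptprs, minus), chr6:47244146-47244445 (Cntnap2, plus) and chr14:108914190-108914489 (Slitrk1, minus), each written 5′ to 3′.
Cadm2: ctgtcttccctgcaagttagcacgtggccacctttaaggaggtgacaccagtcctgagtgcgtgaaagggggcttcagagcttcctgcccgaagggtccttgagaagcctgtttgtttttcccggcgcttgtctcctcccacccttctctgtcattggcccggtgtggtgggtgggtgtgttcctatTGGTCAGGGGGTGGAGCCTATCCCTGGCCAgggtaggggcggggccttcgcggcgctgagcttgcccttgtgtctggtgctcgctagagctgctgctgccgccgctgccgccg
Lsamp: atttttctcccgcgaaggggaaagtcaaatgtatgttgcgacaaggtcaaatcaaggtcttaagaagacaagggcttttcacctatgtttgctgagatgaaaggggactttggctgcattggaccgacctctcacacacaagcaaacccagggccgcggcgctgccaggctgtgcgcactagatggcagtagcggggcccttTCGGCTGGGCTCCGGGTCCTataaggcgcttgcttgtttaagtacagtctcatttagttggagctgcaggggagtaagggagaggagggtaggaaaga
Ptprs: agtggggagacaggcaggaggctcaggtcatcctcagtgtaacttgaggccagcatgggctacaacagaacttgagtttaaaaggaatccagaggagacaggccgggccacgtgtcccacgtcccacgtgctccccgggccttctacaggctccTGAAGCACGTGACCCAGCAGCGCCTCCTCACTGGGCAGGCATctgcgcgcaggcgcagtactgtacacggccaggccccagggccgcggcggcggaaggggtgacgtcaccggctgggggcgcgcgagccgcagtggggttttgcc
Cntnap2: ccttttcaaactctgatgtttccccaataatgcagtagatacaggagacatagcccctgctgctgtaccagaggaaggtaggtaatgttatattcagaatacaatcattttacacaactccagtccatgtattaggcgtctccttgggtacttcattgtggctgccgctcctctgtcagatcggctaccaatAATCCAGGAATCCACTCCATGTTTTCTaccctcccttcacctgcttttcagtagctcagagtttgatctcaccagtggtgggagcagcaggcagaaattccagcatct
Slitrk1: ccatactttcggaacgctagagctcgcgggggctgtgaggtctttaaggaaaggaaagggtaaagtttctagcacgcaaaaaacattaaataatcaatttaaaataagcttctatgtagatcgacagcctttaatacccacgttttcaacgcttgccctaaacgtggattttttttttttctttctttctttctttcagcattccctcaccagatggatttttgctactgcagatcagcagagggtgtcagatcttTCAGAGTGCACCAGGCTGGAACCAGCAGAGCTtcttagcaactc

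In Cadm2, Lsamp and Ptprs the shared bases lay upstream of the start site, 63 to 34 bases before it in Cadm2, 48 to 29 in Lsamp and 96 to 55 in Ptprs. In Cntnap2 they lay 58 to 32 bases before the inner start, and in Slitrk1 6 to 37 bases after it.

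Motifs were searched as letters on both strands. The full estrogen response element (GGTCA, 3 bases of any kind, TGACC) was found in 0 of 53 adhesion gene promoters, against 0.0700% of all listed promoters. Its single arm, GGTCA, was found in 12 (22.6%, against 40.5% of all), and the AP-1 motif, TGANTCA, in 4 (7.55%, against 7.81%). Single arms lay inside the shared bases of Cadm2 (first base 62 before the start) and of Ptprs (87 before it). Each arm there overlaps another motif. In Cadm2 it shares bases with the reverse of a CCAAT box, and in Ptprs with an E-box, CACGTG. Those 2 motifs were added after the sequences had been seen. CCAAT was found in 26.4% of the adhesion gene promoters and 37.4% of all promoters, and in 64.8% of all 2369 promoters with a region of all 6 libraries. CACGTG was found in 5.66%, 7.15% and 11.7% of the same sets, and the single arm in 40.1% of the last. A match is a description of the letters, not of binding.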

How the data were processed

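CUT&RUN with an antibody against ERα was deposited as 1 peak list per library. The authors deposited for each peak an integer score, a fold enrichment at the summit, a −log10 p-value and a −log10 q-value. Tools were MACS2, Bowtie2, cutadapt, deepTools, Picard and SAMtools, on build mm10, per the submitters' processing notes (no versions). Peak names carry a q-value of 0.01, per the file contents; a control library is not mentioned there. Peak values were used to describe and rank, not to test heights between lists.

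Peaks that overlap or touch (1 bp) were merged into regions. Genes, starts and promoter sequences came from RefSeq tables of GRCm38.p6, and no genome sequence outside the listed promoters was used here. Summit fragments were worked out from fold and p-value, assuming a Poisson upper tail and a pseudocount of 1; a whole number matched the −log10 p within 0.0002 for 99.99% to 100% of peaks in each library. Library values were tested by exact permutation, two-sided. Calculations used Python 3.11.15, pandas 2.3.3, NumPy 2.4.6 and SciPy 1.17.1, and were tested on simulated data. Values by library are given for all regions found in every library of one group alone or in all 6 libraries, and for the highest or most shared regions of families; others that are named were chosen after their values were seen. Peaks were assigned to genes as the report states. Members and lists were chosen with earlier results of these data known. Intervals cover counting error only, take genes as independent though they share the same libraries, and test no difference.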

Additional observations from a re-analysis of the deposited data

How the results depend on the processing

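Peaks with few fragments limit every count here, so the lack of a peak is not evidence of no binding. Leaving out 1 library at a time, the difference between groups in members with a peak ran from -0.667 (no vehicle replicate 1) to 10.3. That in peaks at members ran from -14 (no vehicle replicate 1) to 58.5 and was -2.83 without estradiol replicate 3, and that in the share of peaks ran from 0.0428 to 0.253 percentage points. The difference from genes of like span was -4.24 (no estradiol replicate 1) to 6.71 percentage points. Taking like-span genes from the same kind of chromosome (X or autosome), chosen after seeing the data, gave 48.1% in place of 51.3%. The cause was not tested.

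Estradiol-only regions numbered 0 with equal-length lists and 0 with 50% cover, 21 when 2 of 3 libraries sufficed, and 3 to 17 with a library left out (17 without estradiol replicate 1, 7 without estradiol replicate 2, 7 without vehicle replicate 3), the rule then being easier to meet. Vehicle-only regions numbered 7 when 2 of 3 libraries sufficed, 1 with peaks merged across 500 bp, and 0 to 6 with a library left out (6 without vehicle replicate 1, 1 without vehicle replicate 3). Except for 2 of 3 libraries, the share of all regions under each changed rule is not given, so these counts have no baseline. Genes with a peak in all 3 estradiol libraries numbered 12 with equal-length lists and 27 to 29 with an estradiol library left out. The count for all 3 vehicle libraries was 9 at a −log10 q of at least 3, and 14 to 27 with a vehicle library left out (27 without vehicle replicate 1). With a library left out these rules, too, were easier to meet, and shares of all genes are not given.

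A replicate block set same-numbered libraries against each other. Of the 397 regions at adhesion genes, 24 favoured estradiol in 2 or 3 of the pairs and vehicle in none, and 7 did the reverse. Of all 39374 regions, 1943 (4.93%) and 1203 (3.06%) did so. The paired exact test gave p = 0.25 for the share of peaks, p = 0.5 for members with a peak and p = 0.25 for peaks at members, the smallest possible being 0.25. Deviations of same-numbered libraries correlated at 0.130, 0.0347 and 0.143 over all genes, and those of differently numbered libraries at -0.127 to 0.0362. The second pair lay under 0.1, so pairing by number was not established for all 3 pairs, and the tests without the block are given first. The share of peaks and the number of peaks at members were higher in estradiol in all 3 pairs, and the number of members with a peak in 2 of 3.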
